A study of Mus musculus with 24 samples.

Results

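The 9 genes described here, Lmna, Lmnb1, Lmnb2, Lbr, Emd, Tmpo, Banf1, Lemd2 and Lemd3, encode the lamins and the proteins that tie chromatin to them. They were chosen by name, and all 9 were found among the 21909 gene symbols of the RNAseq tables of mouse embryonic stem cells (ESC) and of neural progenitor cells (NPC) derived from them. The study compared the genome around the nucleolus in both cell types. Its maps of nucleolar contacts read here came from ESC lines with an inducible transgene of Dam fused to histone H2B, and from NPCs made of such lines. RNAseq was made from 3 ESC and 3 NPC samples, and the labels name 3 independent culture dishes for each cell type. ESCs of the line E14 were grown without feeder cells with the inhibitors CHIR99021 at 3 µM and PD0325901 at 1 µM and with 1000 U/ml LIF. NPCs were obtained by differentiating ESCs in suspension for 8 days, and retinoic acid at 2 µM was present in the last 4 days. Such a culture is not sorted, and the levels are means over all cells of a dish.

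The nuclear lamina is a meshwork of A-type and B-type lamins under the inner nuclear membrane. Lamin A/C and the lamin B receptor LBR are known as alternative tethers that hold heterochromatin at the nuclear periphery, and ESCs are known for low lamin A/C. Proteins with a LEM domain, such as emerin, LAP2 and MAN1, sit at the membrane or in the nucleoplasm and bind the small chromatin protein BAF, which Banf1 encodes.

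The unit of the values was examined first. The tables give RPKM, reads per kilobase of a gene scaled by the library total in 1000000 reads. The RPKM multiplied by the distance from the start to the end of the gene in GENCODE M21, introns included, and by 1 total per library gave whole reads within 0.02 for 92.6% to 92.7% of the values between 5 and 20000 reads in each sample. The kilobases are therefore those of the gene span and not of the exons. The library totals recovered in this way were 34051992, 33732018 and 30779728 reads for ESC replicates 1, 2 and 3, and 30151252, 27262786 and 32297555 reads for NPC replicates 1, 2 and 3. Because each library was divided by its own total in both tables, values of a gene can be set against each other across the tables. Levels of a gene are given as deposited RPKM. Where genes are ranked, summed or set against each other the value per kilobase of exon, from the recovered reads, is given. That value takes all recovered reads as reads of exons. The paper describes a coverage of exons, but whether reads of introns were counted too was not checked. Any such reads would raise the value per kilobase of exon. The members had from 369 reads (Lmna in NPC replicate 2) to 18555 reads (Lmnb1 in ESC replicate 1) in a sample.

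ESC replicate 3 stood apart from the other ESC samples. Its RPKM values summed to 139988, against 104016 and 105859 in ESC replicates 1 and 2 and 85295 to 86521 in NPCs. Across the tested genes, which are not independent replicates, its log2 values had a Pearson r of 0.963 with ESC replicate 1, whereas ESC replicates 1 and 2 had 0.9985. The gap followed the length of the exons. For genes with at most 1000 bases of exon the median of log2(RPKM + 1) was 0.71 higher in ESC replicate 3 than in replicates 1 and 2, and for genes with more than 6000 bases the median difference was -0.33. The same medians were 0.02 and 0.00 for NPC replicate 3 against the other NPC samples. The difference between the cell types followed exon length as well. The median of NPC minus ESC went from -0.61 for genes with at most 1000 bases of exon to 0.29 for those with more than 6000 bases, and from -0.35 to 0.15 without ESC replicate 3. What sets this trend was not tested. Among the members, Banf1 had 1.95 times and Lbr 0.581 times the level of the other ESC samples in ESC replicate 3. What sets this library apart was not tested, and the difference of each tested member and the counts of each gene list are given with and without it. The nearest profiles and the means of genes outside the 9 include it.

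**Figure D1:**
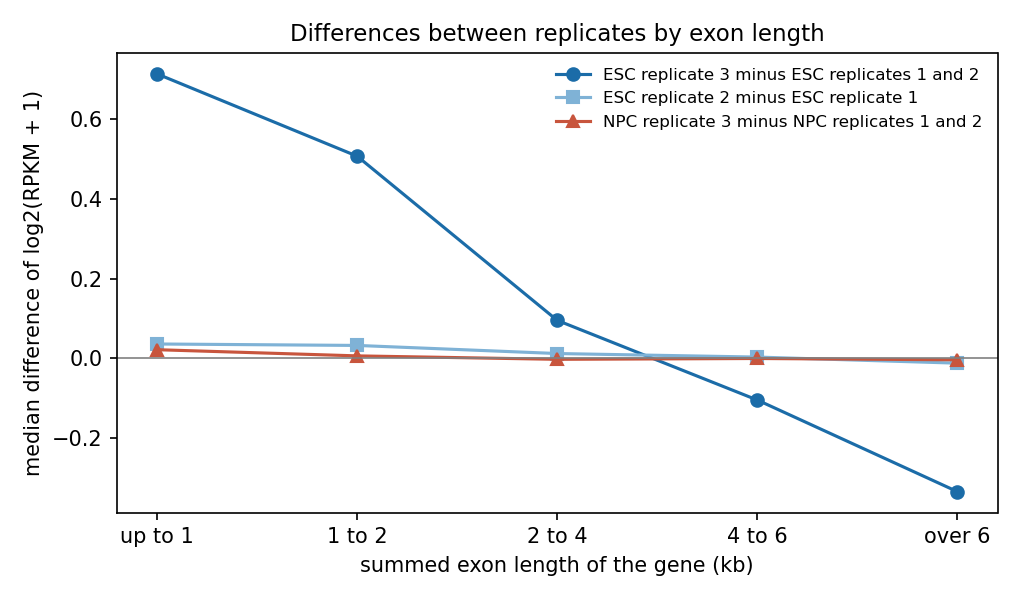
Median difference of log2(RPKM + 1) between replicates of one cell type (vertical axis) in classes of summed exon length in kb (horizontal axis), over the tested genes. ESC replicate 3 falls from 0.71 for the shortest genes to -0.33 for the longest, while the other 2 lines stay near 0.

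Markers were read in all 6 samples to check the labels. All 8 ESC markers fell in NPCs, among them Pou5f1, from a mean of 155.9 ± 40.1 to 0.0532 ± 0.0135 RPKM (SD, n = 3), and Dppa5a, from 1911 ± 1057 to 0.198 ± 0.135 RPKM (SD, n = 3). Of the 8 neural progenitor markers 7 were tested and 6 rose, or 7 without ESC replicate 3. The largest rises on log2(RPKM + 1) were those of Sox3, from 0.285 ± 0.0559 to 8.80 ± 1.76 RPKM, and Nes, from 3.46 ± 0.292 to 30.6 ± 1.79 RPKM (SD, n = 3). On recovered reads Hes5, Fabp7 and Pax6 rose more, by 8.23, 7.46 and 7.16 on the log2 scale, against 4.91 for Sox3 and 3.15 for Nes (limma voom). Pax6 reached 1.42 to 1.67 RPKM in NPCs. The test took genes with at least 1 RPKM in at least 3 samples, and 6 of the tested ESC markers reached this level in ESCs alone and 4 of the tested neural progenitor markers in NPCs alone, so that the filter set the direction these could take. The NPC samples also held RNA of other lineages, and list sums are given in reads per kilobase of exon in 1000000 reads. The 8 neural progenitor markers summed to 81.41, 84.75 and 98.78 in ESC replicates 1, 2 and 3. In NPC replicates 1, 2 and 3 they summed to 170.1, 184.0 and 191.9. Vim, not called with all 6 samples, was the most abundant of them, with 74.15 ± 10.49 in ESCs and 85.51 ± 5.19 in NPCs (SD, n = 3). The 8 mesenchymal markers summed to 0.324, 0.374 and 0.238 in ESC replicates 1, 2 and 3 and to 160.8, 176.5 and 180.0 in NPC replicates 1, 2 and 3. Col3a1 was the most abundant gene of the list in NPCs with 79.2 ± 2.94 on this scale (SD, n = 3), before Col1a1 with 60.7 ± 10.1. Col1a1 had 23.7 ± 3.94 RPKM in NPCs, and Lum, Dcn, Postn and Tagln stayed under 1 RPKM in all samples. The 4 tested genes of this list passed the filter through the NPC samples alone, so that their 4 calls are no finding of direction. The 8 mesoderm and endoderm markers summed to 4.98, 5.38 and 4.04 in ESC replicates 1, 2 and 3 and to 161.0, 164.0 and 165.4 in NPC replicates 1, 2 and 3. Gata4 led in NPCs with 110.0 ± 1.97 on this scale (SD, n = 3), before Gata6 with 34.0 ± 1.72, and Mixl1 and Afp stayed under 1 RPKM in all samples. The 5 tested genes again passed through the NPC samples alone. T (brachyury), an early mesoderm gene, was not tested at 0.959 ± 0.0869 RPKM in ESCs and 0.0123 ± 0.00374 RPKM in NPCs (SD, n = 3), and on recovered reads it fell by 6.09 on the log2 scale (limma voom, adjusted p = 2.51e-06), a gene chosen after its values were seen. Of 8 neuron markers 3 were tested. Neurod1 rose from 0.399 ± 0.0237 to 1.27 ± 0.219 RPKM (SD, n = 3), while Stmn2, with at least 1 RPKM in ESCs alone as Neurod1 in NPCs alone, fell from 5.28 ± 1.10 to 0.306 ± 0.0220 RPKM and Tubb3 from 7.28 ± 0.763 to 4.15 ± 0.508 RPKM. The list summed to 81.4, 87.2 and 106.9 reads per kilobase of exon in 1000000 reads in ESC replicates 1, 2 and 3 and to 48.9, 40.5 and 47.5 in NPC replicates 1, 2 and 3, with Stmn2 the most abundant in ESCs at 49.3 ± 10.3 and Tubb3 in NPCs at 23.5 ± 2.88 (SD, n = 3). Tubb3 was not called with each sample rescaled to a sum of 1000000 (limma, adjusted p = 0.0555). Of the list 4 genes were under 1 RPKM in all samples, and on recovered reads 8 were tested, of which 6 rose and 2 fell. The counts of ESC, neuron, mesenchymal, and mesoderm and endoderm markers in each direction were the same without ESC replicate 3. The part that a mixture of cell types has in the member levels was not tested, and fewer cells of a type and less RNA per cell cannot be told apart in these samples.

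On RPKM as deposited most of the lamina genes were lower in NPCs. Lmna, Lmnb1, Lmnb2, Lbr, Emd and Banf1 fell, Tmpo and Lemd2 rose, and Lemd3 did not reach the level needed for the test. With each sample rescaled to equal sums over the same genes 2 fell, Lmna and Banf1, and the same 2 rose. At this setting 67.3% of all tested genes were called, 46.7% higher and 20.6% lower in NPCs. Of the 9 members 8 had at least 1 RPKM in at least 3 samples and all 8 were called by limma at an adjusted p below 0.05, against 70.2% of the 7835 tested genes, 36.9% higher and 33.3% lower in NPCs. A share this high over all genes leaves little to read from the count of called members. Without ESC replicate 3 the same 8 of 8 were called, against 87.9% of all tested genes, 43.9% higher and 44% lower in NPCs. In all 8 the ESC and NPC values did not overlap, as in 80.0% of the tested genes. The median log2 difference of the 8 members was -0.41, beside 0.02 for all tested genes. Set against the median of all tested genes in the same class of exon length, a comparison added once the data had been seen, the 6 members that fell stayed below it and the 2 that rose above it, with and without ESC replicate 3. Banf1, with 1496 bases of exon, lay at -1.69 in a class with a median of -0.49, and Tmpo, with 10998 bases, at 0.71 in a class with a median of 0.29. Emd was nearest to its class, at a distance of -0.08. Because Lmna passed this filter through the ESC samples alone, count and median are a description of the list.

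**Figure D2:**
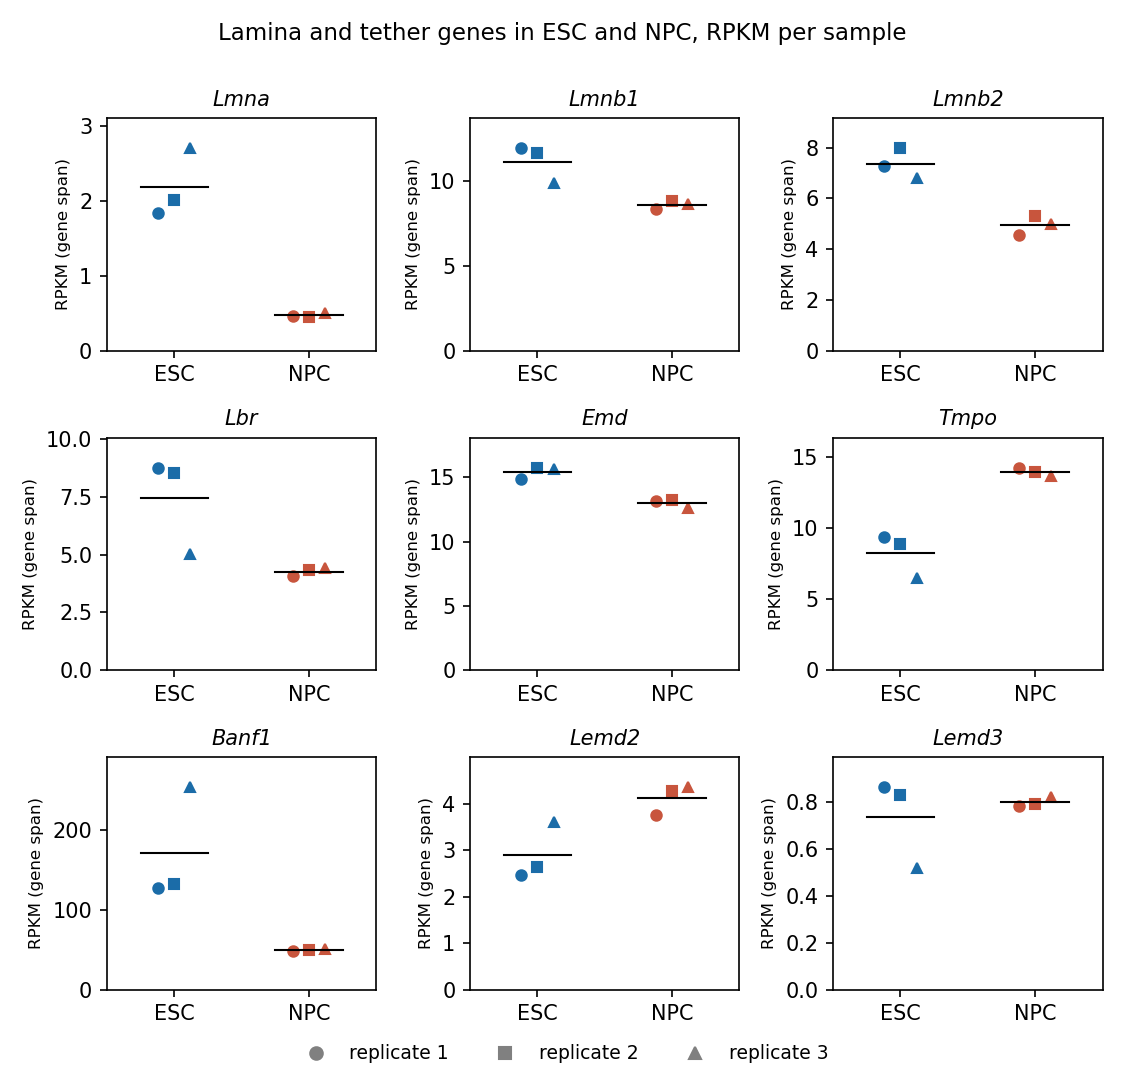
RPKM per kilobase of gene span (vertical axis, starting at 0) of each member in ESC and NPC samples, with 1 point per sample, replicate numbers as symbols and the group mean as a line. The groups do not overlap for any member except Lemd3, and ESC replicate 3 lies above both other ESC samples for Lmna, Lemd2 and Banf1 (1.4 to 1.95 times their mean) and below both for Lbr, Lemd3, Tmpo, Lmnb1 and Lmnb2 (0.581 to 0.893 times).

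Lmna encodes lamins A and C, the A-type lamins. Its level was 1.84, 2.02 and 2.71 RPKM in ESC replicates 1, 2 and 3 and 0.462, 0.454 and 0.50 RPKM in NPC replicates 1, 2 and 3. Every ESC sample was above every NPC sample. The mean of 2.19 ± 0.455 RPKM in ESCs (SD, n = 3) was 4.64 times that of 0.472 ± 0.0244 RPKM in NPCs, and 4.09 times without ESC replicate 3. Lmna had at least 1 RPKM in ESCs alone, so that among tested genes it could only fall, and its p-values are given as a description. On the scale of log2(RPKM + 1), which understates changes of genes near 1 RPKM, the difference was -1.11 with a standard error of 0.10 (limma, adjusted p = 9.67e-05). On recovered reads, an alternative chosen after seeing the data, it was -2.19 with a standard error of 0.17 (limma voom, adjusted p = 2.72e-05).

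On RPKM as deposited the B-type lamins fell less, and neither was called with equal sums, where Lmnb1 turned to 0.05 and Lmnb2 had -0.12 (limma, adjusted p = 0.804 and 0.501). Lmnb1 had 11.9, 11.7 and 9.89 RPKM in ESC replicates 1, 2 and 3 and 8.36, 8.86 and 8.67 RPKM in NPC replicates 1, 2 and 3. The lowest ESC value, that of replicate 3, lay above the highest NPC value. The mean fell from 11.2 ± 1.11 to 8.63 ± 0.248 RPKM (SD, n = 3), or 1.29 times, with a log2 difference of -0.33 and a standard error of 0.10 (limma, adjusted p = 0.0215). The call was lost when any sample other than ESC replicate 3 was left out (adjusted p between 0.0657 and 0.0758 from limma), and the difference was -0.41 without ESC replicate 3 (limma, adjusted p = 7.14e-05). Lmnb2, which encodes the second B-type lamin, had 7.28, 7.97 and 6.8 RPKM in ESC replicates 1, 2 and 3 and 4.56, 5.31 and 4.99 RPKM in NPC replicates 1, 2 and 3. All ESC samples were above all NPC samples, 1.48 times on average, with a log2 difference of -0.49 and a standard error of 0.09 (limma, adjusted p = 0.00351). Without ESC replicate 3 it was -0.53 (limma, adjusted p = 0.000157).

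The make-up of the lamins moved with Lmna. Per kilobase of exon, the share of Lmna in the sum of the 3 lamins was 4.24%, 4.66% and 7.15% in ESC replicates 1, 2 and 3, against 1.58%, 1.45% and 1.64% in NPC replicates 1, 2 and 3. The shares did not overlap (two-sided exact permutation test, p = 0.1, the smallest p that 3 against 3 samples can give). The mean was 5.35% ± 1.58 in ESCs (SD, n = 3), or 4.45% without replicate 3, and 1.56% ± 0.0950 in NPCs, a difference of -3.79 percentage points. In the summed RPKM as deposited, per kilobase of gene span, the shares were 10.7% ± 2.85 in ESCs, 9.04% without replicate 3, and 3.36% ± 0.224 in NPCs (SD, n = 3), a difference of -7.32 percentage points. The log2 ratio of Lmnb1 to Lmnb2 per kilobase of exon was 2.67, 2.50 and 2.49 in ESC replicates 1, 2 and 3, against 2.83, 2.69 and 2.75 in NPC replicates 1, 2 and 3. Lmnb1 thus exceeded Lmnb2 in all samples, and the ratio rose by 0.20 on average, or 0.17 without ESC replicate 3, with all NPC values above all ESC values (two-sided exact permutation test, p = 0.1). With 1 RPKM added to each gene, on the RPKM scale, it rose by 0.15 (two-sided exact permutation test, p = 0.2).

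Lbr encodes a receptor of B-type lamins that binds heterochromatin and is also a sterol reductase. It had 8.76, 8.56 and 5.03 RPKM in ESC replicates 1, 2 and 3 and 4.05, 4.33 and 4.42 RPKM in NPC replicates 1, 2 and 3. ESC replicate 3 lay closer to the NPC samples than to the other ESC samples. The mean fell from 7.45 ± 2.1 to 4.27 ± 0.192 RPKM (SD, n = 3), with a log2 difference of -0.65 and a standard error of 0.19 (limma, adjusted p = 0.0226). Without ESC replicate 3 the fall was 2.03 times, with a log2 difference of -0.87 and a standard error of 0.05 (limma, adjusted p = 1.42e-06), whereas leaving out any other sample lost the call (limma, adjusted p between 0.0605 and 0.0791). With equal sums Lbr had -0.30 and was not called (limma, adjusted p = 0.374). Lbr shares 440 exon bases, 9.24% of its own, with Dnah14 on the opposite strand, and use of strand in the counting is not given in the sources used here.

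A ratio within a sample does not move with the scaling, and Lmna was lower relative to Lbr in NPCs. The log2 ratio of Lmna to Lbr per kilobase of exon was -2.44, -2.27 and -1.08 in ESC replicates 1, 2 and 3, against -3.32, -3.44 and -3.33 in NPC replicates 1, 2 and 3. The NPC values lay below all ESC values (two-sided exact permutation test, p = 0.1), by 1.44 on average and by 1.01 without ESC replicate 3. With 1 RPKM added to each gene the difference of this ratio, taken on the RPKM scale, was -0.46.

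Banf1, whose product BAF binds DNA and LEM proteins, showed the largest fall of the tested members on log2(RPKM + 1), whereas Lmna fell more by the ratio of means and on recovered reads (-2.19 against -1.72 on the log2 scale). It had 127.7, 132.7 and 253 RPKM in ESC replicates 1, 2 and 3 and 48.9, 49.6 and 50.4 RPKM in NPC replicates 1, 2 and 3. ESC replicate 3 was far above the other ESC samples, and all ESC samples were above all NPC samples. The ESC mean of 171.3 ± 71.1 RPKM (SD, n = 3) was 3.45 times the NPC mean of 49.6 ± 0.756 RPKM, and 2.63 times without ESC replicate 3. The log2 difference was -1.69 with a standard error of 0.27 (limma, adjusted p = 0.00161), and -1.37 with a standard error of 0.04 without ESC replicate 3 (limma, adjusted p = 1.25e-07). Banf1 shares 428 exon bases, 28.6% of its own, with Eif1ad on the opposite strand, and the sources used here give different kits and do not state whether reads were counted by strand.

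Among the LEM proteins the directions differed. Tmpo, which encodes the LAP2 proteins, had 9.37, 8.87 and 6.46 RPKM in ESC replicates 1, 2 and 3 and 14.2, 13.9 and 13.6 RPKM in NPC replicates 1, 2 and 3. All NPC samples were above all ESC samples. The mean rose 1.69 times, and 1.53 times without ESC replicate 3, with log2 differences of 0.71 and a standard error of 0.14 (limma, adjusted p = 0.00403) and of 0.56 and a standard error of 0.05 (limma, adjusted p = 1.49e-05).

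Lemd2, a membrane protein of the LEM family, had 2.45, 2.63 and 3.59 RPKM in ESC replicates 1, 2 and 3 and 3.75, 4.27 and 4.35 RPKM in NPC replicates 1, 2 and 3. The gap between the highest ESC and the lowest NPC sample was small. The mean rose 1.43 times, or 1.62 times without ESC replicate 3. The log2 difference was 0.41 with a standard error of 0.13 (limma, adjusted p = 0.0271), and 0.53 without ESC replicate 3 (limma, adjusted p = 0.000109). The call was lost without ESC replicate 1 or 2 or NPC replicate 2 or 3 (limma, adjusted p between 0.0772 and 0.095) and with median-ratio rescaling (limma, adjusted p = 0.399).

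Emd, which encodes emerin, had the smallest difference of the tested members on RPKM as deposited, and its direction turned with the scaling. Its level was 14.9, 15.7 and 15.6 RPKM in ESC replicates 1, 2 and 3 and 13.1, 13.2 and 12.6 RPKM in NPC replicates 1, 2 and 3. ESC replicate 3 lay within the range of the other ESC samples here. The mean of ESCs was 1.19 times that of NPCs, with a log2 difference of -0.23 and a standard error of 0.08 (limma, adjusted p = 0.0416). The call was lost on recovered reads (limma voom, adjusted p = 0.061) and without any sample other than ESC replicate 3 (limma, adjusted p between 0.0683 and 0.154), while without ESC replicate 3 it held at -0.22 (limma, adjusted p = 0.00307). With equal sums the difference was 0.17 (limma, adjusted p = 0.25). Emd shares 343 exon bases, 13.6% of its own, with the pseudogene Gm14686.

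Lemd3, which encodes MAN1, had 0.862, 0.830 and 0.518 RPKM in ESC replicates 1, 2 and 3 and 0.782, 0.791 and 0.823 RPKM in NPC replicates 1, 2 and 3. It was under 1 RPKM in all samples, yet its gene span of 55919 bases held 892 to 1641 reads a sample, so the filter removed it for the length of its introns and not for lack of reads. The groups overlapped through ESC replicate 3 alone, as ESC replicates 1 and 2 lay above all NPC samples. On recovered reads the log2 difference was 0.15 with a standard error of 0.21 (limma voom, adjusted p = 0.525), and -0.08 without ESC replicate 3 (limma voom, adjusted p = 0.208). On recovered reads 7 of 9 members were called, against 73.7% of 12551 genes.

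**Figure D3:**
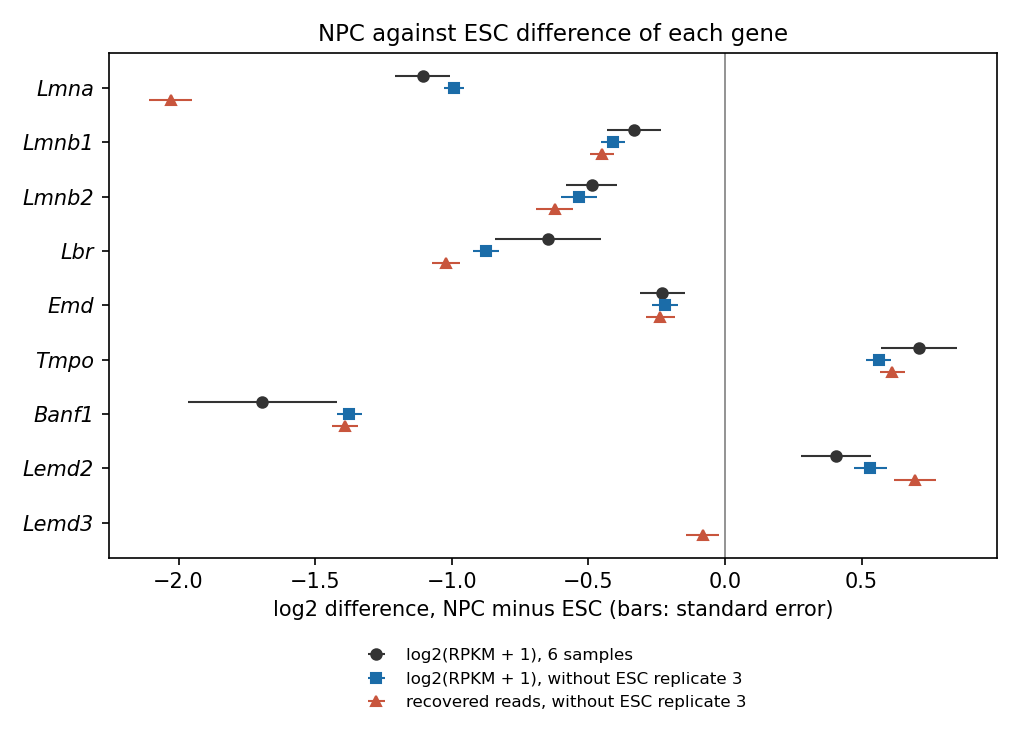
Log2 difference of each member, NPC minus ESC (horizontal axis), with the standard error as bars, from log2(RPKM + 1) in all 6 samples, from the same without ESC replicate 3, and from recovered reads without ESC replicate 3. Lmna lies at -1.11 on log2(RPKM + 1) and at -2.03 on reads, and Tmpo and Lemd2 lie right of 0 in each.

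The scaling sets where 0 lies in such a comparison. With each sample rescaled to the mean sum of the samples and the same 7835 genes tested, a setting added after the data had been seen, the median difference of all tested genes moved from 0.02 to 0.33, and with median-ratio rescaling (7760 genes tested) to -0.22. Rescaling to a sum of 1000000, which also let 12648 genes pass the filter and made the pseudocount smaller beside the values, gave 0.60. Of all called genes 52.6% were higher in NPCs as deposited, 69.4% with equal sums, 73.6% with the sum of 1000000, 40.3% with median-ratio rescaling, 61.7% on recovered reads and 63.3% with no filter. Lmnb1 and Emd turned to 0.06 and 0.18 with the sum of 1000000 (limma, adjusted p = 0.798 and 0.257), and Lmnb2 and Lbr were no longer called there, at -0.14 and -0.33. With equal sums and the same genes the same 4 members were not called. Relative to the median of all genes, Lmna, Lmnb1, Lmnb2, Lbr, Emd and Banf1 were lower and Tmpo and Lemd2 higher under each of these scalings.

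Per kilobase of exon, with the same scaling to 1000000 reads, the order of the members changed between the cell types. In NPCs Lmnb1 led with 132.9 ± 3.83, followed by Banf1 with 66.4 ± 1.01, Tmpo with 42.8 ± 0.924, Emd with 35.4 ± 0.832, Lbr with 24.8 ± 1.12, Lmnb2 with 19.7 ± 1.5, Lemd2 with 12.6 ± 0.998, Lemd3 with 9.29 ± 0.25 and Lmna with 2.41 ± 0.125 (SD, n = 3). Each of these lay above the next in all NPC samples. In ESCs the means were 229 ± 95.3 for Banf1, 171.9 ± 17.2 for Lmnb1, 43.4 ± 12.2 for Lbr, 42.0 ± 1.26 for Emd, 29.2 ± 2.32 for Lmnb2, 25.3 ± 4.78 for Tmpo, 11.2 ± 2.32 for Lmna, 8.80 ± 1.87 for Lemd2 and 8.56 ± 2.21 for Lemd3 (SD, n = 3). There, Banf1 and Lmnb1, Lbr and Emd, Lmnb2 and Tmpo, and Lmna, Lemd2 and Lemd3 overlapped with their neighbours. Without ESC replicate 3 Lmnb1 led with 181.7, before Banf1 with 174.4 and Lbr with 50.4. The exon length of Banf1 is that of GENCODE M21, although a gene span of 2004 bases, not the one of M21, made its values whole.

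The coefficient of variation of the RPKM between replicates ran from 3.00% for Emd to 41.5% for Banf1 in ESCs, and from 1.52% for Banf1 to 7.95% for Lemd2 in NPCs. The wider range in ESCs rests on ESC replicate 3, without which it was 1.65% for Lbr to 6.40% for Lmnb2 over 2 samples.

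Beside the list counts that follow, 36.9% of all tested genes were called higher and 33.3% lower in NPCs. Without ESC replicate 3 these shares were 43.9% and 44%. They were 51% and 18.3% with the sum of 1000000, and 28.9% and 42.7% with median-ratio rescaling. Of 6 genes of the LINC complex, which couples the lamina to the cytoskeleton, 4 were tested, 2 rose and 2 did not pass the test. Without ESC replicate 3 the same number rose and 1 fell. Sun2 went from 1.17 ± 0.171 to 4.57 ± 0.181 RPKM and Syne2 from 0.268 ± 0.150 to 2.44 ± 0.134 RPKM (SD, n = 3, limma adjusted p = 1.25e-05 and 1.73e-05). Syne2 had at least 1 RPKM in NPCs alone, so that the filter set the direction it could take. The median log2 difference of the 4 tested genes was 0.57, and Syne1 and Syne3 were under 1 RPKM in all samples. Of 14 other inner nuclear membrane proteins 12 were tested, 4 rose, 3 fell and 5 did not pass, with a median of 0.13. Of those that rose 3, Tor1aip1, Nemp2 and Wfs1, had at least 1 RPKM in NPCs alone and could only rise. Of these 12 genes 5 rose and 5 fell without ESC replicate 3, with a median of 0.04. Tor1aip1 (LAP1) went from 0.607 ± 0.0560 to 1.44 ± 0.0550 RPKM and Nemp2 from 0.764 ± 0.136 to 1.73 ± 0.0807 RPKM, while Nrm (nurim) fell from 8.25 ± 0.469 to 6.15 ± 0.192 RPKM and Tor1aip2 from 5.85 ± 0.718 to 4.41 ± 0.261 RPKM (SD, n = 3). Rescaled to the sum of 1000000, 6 of 14 tested genes rose and 0 fell, Nrm and Tor1aip2 having 0.00 and 0.02 on the log2 scale (limma, adjusted p = 0.986 and 0.933), and the call of Tor1aip2 was lost without ESC replicate 1 or 2 or NPC replicate 2 or 3 (limma, adjusted p between 0.0736 and 0.0968). Of this list 2 genes were under 1 RPKM in all samples. Of the 5 enzymes that process prelamin A and the B-type lamins 4 were tested and 1 fell, Fnta, a subunit of farnesyltransferase, from 6.91 ± 1.61 to 3.65 ± 0.256 RPKM (SD, n = 3), and 1 was under 1 RPKM throughout. The count was the same without ESC replicate 3.

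Of 10 chromatin and kinase partners of the lamina 8 were tested, 2 rose and 5 fell, or 6 fell without ESC replicate 3, with a median of -0.25. Cbx5, which encodes the LBR partner HP1 alpha, rose from 10.6 ± 3.34 to 17.6 ± 0.336 RPKM, and Hdac3 from 5.09 ± 0.609 to 6.32 ± 0.374 RPKM (SD, n = 3, limma adjusted p = 0.0259 and 0.0492). With median-ratio rescaling 0 of the 8 rose and 6 fell, and neither Cbx5 nor Hdac3 was called (limma, adjusted p = 0.057 and 0.919). Cbx5 was not called without any 1 NPC sample (limma, adjusted p between 0.0698 and 0.0815), and Hdac3 was not called with a pseudocount of 0.1 or on recovered reads (adjusted p = 0.0519 and 0.061 from limma) or without any sample other than ESC replicate 3 (limma, adjusted p between 0.106 and 0.156). Zbtb7b fell from 2.66 ± 0.579 to 0.820 ± 0.0514 RPKM and Cbx3 from 7.53 ± 0.839 to 5.29 ± 0.376 RPKM (SD, n = 3). Of the 5 that fell Zbtb7b and Gmcl1 had at least 1 RPKM in ESCs alone and could only fall. Rescaled to the sum of 1000000, 9 genes were tested, 3 rose and Zbtb7b alone fell, and Cbx3 was not called (limma, adjusted p = 0.552). In all samples 2 genes of the list were under 1 RPKM. Of 13 genes of cholesterol synthesis, the pathway of the reductase activity of LBR, 4 rose, 2 fell and 7 did not pass, with a median of 0.07. Of these 13 genes 4 rose and 4 fell without ESC replicate 3, with a median of -0.07. Sc5d and Hsd17b7 rose from 2.66 ± 0.398 to 5.71 ± 0.302 RPKM and from 0.853 ± 0.269 to 2.28 ± 0.0600 RPKM, and Ebp and Fdft1 fell from 6.88 ± 2.23 to 1.67 ± 0.102 RPKM and from 5.77 ± 0.743 to 3.98 ± 0.190 RPKM (SD, n = 3). In all, 6 rose and 1 fell with the sum of 1000000, and Fdft1 was not called (limma, adjusted p = 0.386). With median-ratio rescaling 3 rose and 5 fell. Tm7sf2, which encodes the other sterol C14 reductase, had 6.72 ± 1.37 RPKM in ESCs and 5.96 ± 0.289 RPKM in NPCs (SD, n = 3, limma adjusted p = 0.398), a gene chosen after its values were seen, and with the sum of 1000000 it rose by 0.27 on the log2 scale (limma, adjusted p = 0.0389).

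Of 20 nuclear pore genes 19 were tested, 1 rose and 6 fell, with a median of -0.16. Without ESC replicate 3, 1 rose and 18 fell, with a median of -0.44. Over all tested genes 36.9% rose and 33.3% fell, or 43.9% and 44% without this sample. Nup93 fell from 2.38 ± 0.485 to 0.765 ± 0.0309 RPKM and Nup210 from 2.15 ± 0.871 to 0.682 ± 0.0293 RPKM, and Pom121 rose from 4.69 ± 2.31 to 11.7 ± 0.404 RPKM (SD, n = 3). Nup93 and Nup210 had at least 1 RPKM in ESCs alone and could only fall. Rescaled to the sum of 1000000, 20 genes were tested, 1 rose and 2 fell, Nup210 not among them (limma, adjusted p = 0.0624). Of this list 1 gene was under 1 RPKM in all samples. Of 18 cell cycle genes 15 fell, or 17 without ESC replicate 3, and 1, Mki67, rose, with a median of -0.80. Only 9 fell and 1 rose with the sum of 1000000, where 18.3% of all tested genes fell and 51% rose. Mcm5 fell from 34.8 ± 2.16 to 13.0 ± 0.0651 RPKM and Ccnb1 from 40.8 ± 1.44 to 16.9 ± 0.395 RPKM, and Mki67 rose from 11.5 ± 5.11 to 25.4 ± 1.17 RPKM (SD, n = 3). The call of Mki67 was lost without any 1 NPC sample (limma, adjusted p between 0.0508 and 0.0595). The part that proliferation has in the member levels was not tested.

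Nucleolar associated domains (NADs) of both cell types were read at the members. By the paper's account they came from lines carrying Dam fused to histone H2B, with or without a nucleolar localization signal. Doxycycline and Shield1 induced this transgene, and no RNAseq sample title names it. Of the 9 genes 1 overlapped a NAD of ESCs, Lbr at chr1:181815335-181843046 on the minus strand of GRCm38, within a NAD from 181600124 to 182099303 with a score of 0.0282. No member overlapped a NAD of NPCs, where the nearest NAD to Lbr, from 181900427 to 182000124 with a score of 0.0971, began 57.4 kb from the gene. The transcription starts gave the same counts. The other members lay at chr3:88480147-88509956 (Lmna, minus), chr18:56707813-56753424 (Lmnb1, plus), chr10:80901203-80918245 (Lmnb2, minus), chrX:74254687-74261548 (Emd, plus), chr10:91147571-91181315 (Tmpo, minus), chr19:5364638-5367168 (Banf1, minus), chr17:27189600-27204469 (Lemd2, minus) and chr10:120923413-120979332 (Lemd3, minus). The NAD nearest to Tmpo ended 47.8 kb before the gene in NPCs, and in ESCs another one, beyond the other end of the gene, began at a distance of 318 kb. The resolution that the paper gives for its NAD signal is about the length of the NPC NAD nearest to Lbr. The distances of 57.4 kb and 47.8 kb are below it, so they do not place Lbr and Tmpo clearly outside a NAD of NPCs. The NADs are single lists without replicate values, covering 792 Mb in ESCs and 728 Mb in NPCs, so that a difference at 1 gene was not tested. The share of all genes within NADs is not given here, so these member counts stand without a background.

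For the members with the largest rise and the largest fall on log2(RPKM + 1), Tmpo and Banf1, the 3 tested genes with the nearest profile were taken by the Euclidean distance between log2(RPKM + 1) values over the 6 samples, each centred on its own mean. Nearest to Tmpo were Zmym2 at 0.0591, Gsk3b at 0.0634 and Mbd1 at 0.0640. Nearest to Banf1 were Rbm8a at 0.118, 1810037I17Rik at 0.133 and Crip1 at 0.138. The choice of Banf1 rests on the pseudocount of 1 RPKM, since with 0.1 RPKM added Lmna had the larger fall. Without ESC replicate 3 Tmpo still rose more than Lemd2 on log2(RPKM + 1), by 0.562 against 0.532. On recovered reads without this sample Lemd2 rose more, by 0.696 against 0.612 on the log2 scale (limma voom). The genes near Banf1 carry the high value of ESC replicate 3 too, as in Rbm8a with 71.1, 69.8 and 135.1 RPKM in ESC replicates 1, 2 and 3 and 27.7, 28.2 and 27.0 RPKM in NPC replicates 1, 2 and 3.

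RefSeq promoters were found for 7 of the 9 members, not for Lmnb1 and Lemd2, and the 250 bases before the start were searched on both strands. Over all 32851 RefSeq promoters, windows of this length held the GC box GGGCGG in 32.7%, the box CCAAT in 33.8%, the TATA box TATAAA in 12.4%, the E box CACGTG in 6.02% and the nuclear receptor half-site AGGTCA in 14.0%. The E2F letters TTTGGCGC stood in 0.417% of them, the form TTTCCCGC in 0.895% and the form TTTCGCGC in 0.256%. All 7 windows held a GC box, but not all lie outside exons, since 180 of the 250 bases of the Banf1 window, 34 of Lmna and 2 of Lemd3 are in annotated exons. The windows had from 51.2% (Emd) to 77.2% (Banf1) G and C, beside a median of 52.4% over all promoters. The part that base composition has in the GC boxes was not tested. Lbr, Emd, Tmpo and Lemd3 held CCAAT, Emd held AGGTCA, and no window held a TATA box, an E box or the E2F letters. Where a gene has several entries, the one in which most GENCODE transcripts start was used. The windows of Lbr, which fell, and Tmpo, which rose, are shown as members with opposite directions and the same letters. Both are from GRCm38.p6, minus strand, within the span of the gene and outside its annotated exons, with GC box and CCAAT letters of either strand in capitals, at chr1:181842402-181842651 (Lbr, 69.6% G and C) and chr10:91171620-91171869 (Tmpo, 70.8%). The Lbr window has 1 GC box and 2 CCAAT, the Tmpo window 4 GC boxes and 2 CCAAT, with no overlap between matches.
Lbr: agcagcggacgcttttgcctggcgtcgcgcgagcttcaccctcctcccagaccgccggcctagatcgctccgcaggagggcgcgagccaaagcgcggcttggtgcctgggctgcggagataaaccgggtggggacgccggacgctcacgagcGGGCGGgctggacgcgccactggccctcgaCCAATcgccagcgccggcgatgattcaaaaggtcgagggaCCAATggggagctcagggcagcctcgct
Tmpo: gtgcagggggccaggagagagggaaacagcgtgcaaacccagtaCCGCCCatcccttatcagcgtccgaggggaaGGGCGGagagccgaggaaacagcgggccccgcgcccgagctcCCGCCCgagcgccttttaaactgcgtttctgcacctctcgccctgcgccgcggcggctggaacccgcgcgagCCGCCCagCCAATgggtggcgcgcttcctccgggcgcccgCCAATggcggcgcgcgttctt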

How the data were processed

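RNAseq of 3 ESC and 3 NPC samples was used, grouped by the sample labels. By the paper's account SortMeRNA was used against rRNA reads, Trimmomatic for trimming and STAR for alignment to mm10, with RPKM from a custom pipeline of exon coverage. The labels of the RNAseq samples list other tools, Bowtie2 2.3.4.3, Subread 1.4.6-p4 and deepTools 3.2.1. Which of these gave the deposited values is not known. ESC and NPC samples are in separate tables. The sources used here give neither the annotation nor whether reads were counted by strand. They name different library kits, and the kit named in the paper is a stranded one. The NAD lists hold 1 score per NAD, deposited by the authors after Nucleolar-DamID, with peaks found in both replicates kept. ESC and NPC samples share no batch label, so cell type and handling cannot be told apart.

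Of 22064 lines, 153 symbols stood on several, and the line with the highest mean was kept. Genes with at least 1 RPKM in at least 3 of 6 samples were tested on log2(RPKM + 1) with limma 3.58.1 (lmFit, eBayes with trend) in R 4.3.3 and Benjamini-Hochberg adjustment over all of them, called below 0.05. The limma step was tested on simulated data with a known set of changed genes. The log ratios and the share used exact permutation tests. The design took RPKM as per kilobase of exon, which the values contradict, so levels between genes rest on recovered reads. These use GENCODE M21 spans, or, for members such as Banf1 and Lemd2, the only span within 50% of it that makes all 6 values whole within 0.02. Reads with a mean of at least 20 were tested with limma voom on the recovered totals. Python 3.11.15 with pandas 2.3.3, numpy 2.4.6 and scipy 1.17.1 served for other steps, and matplotlib 3.10.9 for figures.

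All 9 members are named. Of each other list, the called genes with the 2 largest rises and the 2 largest falls on log2(RPKM + 1) are named, and genes under 1 RPKM in all samples are counted. Members and lists were chosen with earlier results of these data known. The promoter letters and the choice among promoter entries were set after the data were seen. Nup58 was read under its older symbol Nupl1. Alternatives were other pseudocounts, filters, scalings, no trend, a replicate block, samples left out in turn and, chosen after seeing the data, recovered reads, exon lengths and equal sums over the same genes.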

Additional observations from a re-analysis of the deposited data

How the results depend on the processing

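The members called numbered 8 in all 6 samples and 4 to 8 with 1 sample left out, 8 being the count without ESC replicate 3. They numbered 4 with each sample rescaled to 1000000 and with equal sums over the same genes, 7 with median-ratio rescaling and on recovered reads, and 8 under each other alternative except the replicate block. Of all tested genes 58.9% to 87.9% were called with 1 sample left out. The shares were 69.3% with the sum of 1000000, 67.3% with equal sums, 71.6% with median-ratio rescaling and 73.7% on recovered reads. The calls of Lmna, Tmpo and Banf1 and their directions held in all alternatives, and that of Lmnb2 in all but these rescalings to 1 sum. In fits filtered on RPKM as deposited Lmna could only fall, so that its direction there is no sign of stability. The fits with no filter and on recovered reads did not set its direction in this way. With the replicate block 6 members and 5214 genes were called, and Lmnb1 and Emd were not (limma, adjusted p = 0.0603 and 0.138). Replicate numbers did not pair the samples, since deviations of samples with the same number had correlations of 0.114, -0.083 and 0.032 across genes, and not every sample correlated best with its own number. For the share and both ratios, whose differences (-7.32 percentage points, -1.44 and 0.20) are the same with the block by construction, the exact sign permutation over 3 pairs gave p = 0.25, the smallest it can give, against 0.1.

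All genes called numbered 5500, and 11454 without a filter, 8768 with the sum of 1000000, 9247 on recovered reads, and 11146 on these without ESC replicate 3, where 18360, 12648, 12551 and 12551 genes were tested. They numbered 4616 to 6884 with 1 sample left out. With the sum of 1000000 Lmnb1 and Emd reversed to 0.0595 and 0.180, with equal sums to 0.0519 and 0.168, and Lemd3 reversed from 0.06 without a filter to -0.0821 on recovered reads without ESC replicate 3. The cause was not tested. The share of Lmna differed by -3.79 points per exon length, and on RPKM as deposited by -8.28 to -5.68 points with 1 sample left out. The ratio of Lmna to Lbr differed by -0.46 with 1 RPKM added and by -1.69 to -1.01 with 1 sample left out, and that of Lmnb1 to Lmnb2 by 0.17 to 0.26.

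Of the lists, 8 neuron markers were called on recovered reads against 3, 4 LINC genes with median-ratio rescaling against 2, and 2 lamin-processing enzymes under both against 1. With the sum of 1000000 6 neuron markers, 2 lamin-processing enzymes, 4 chromatin and kinase partners against 7, 3 nuclear pore genes and 10 cell cycle genes against 16 were called, and with equal sums 3 partners, 2 nuclear pore genes and 10 cell cycle genes. Of the nuclear pore genes 7 were called, 11 with median-ratio rescaling and 19 without ESC replicate 3. Fits without 1 sample leave 2 against 3 samples, and 3 against 3 samples cannot give a permutation p below 0.1.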
